A study of Trachemys scripta with 24 samples.

Results

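The let-7 family of microRNAs (miRNAs) was followed in plasma of the pond slider *Trachemys scripta* around gonadectomy. Its members were all miRNAs of the count table whose name, after the 3-letter species prefix, starts with let-7. They made up 31 of 902 names and 111 of 1994 entries, an entry being 1 name under 1 species prefix. Plasma of females came from 3 time points, T0 at 24 h pre-surgery, T1 at 2.5 h post-surgery and T2 at 36 h post-surgery, with 8 small RNA libraries each. All turtles were clinically healthy adults that had the same injectable anesthesia (dexmedetomidine, ketamine, midazolam and alfaxalone) and endoscope-assisted removal of the ovaries. Atipamezole and flumazenil were given after the procedure to reverse dexmedetomidine and midazolam. Food was withheld before surgery, and spontaneous feeding had returned before T2. T1 and T2 thus differ from T0 by anesthesia, its reversal, surgery, feeding state and time together. The design has no turtle that was anesthetized without surgery. The same 8 turtles were bled at each time point, but the labels do not say which turtle a library came from. No libraries were paired, and every test below treats repeated samples of 1 turtle as independent, which they are not.

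let-7 was first found in *Caenorhabditis elegans*, where it times the passage from larval to adult cell fates. Vertebrates carry many copies that differ by a few bases and share the seed, the stretch by which a miRNA recognizes its target mRNAs, and in mammals those targets include the RAS genes, MYC and HMGA2. Each copy is cut from a hairpin with a 5p and a 3p arm, the arm loaded into the silencing complex is usually the 5p one, and the RNA-binding protein LIN28 blocks the maturation of let-7. A letter after let-7 stands for the mature sequence, and a number after the letter for the hairpin copy that can yield it.

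The turtle has no miRBase entries of its own in this table. Reads were counted by the authors on precursors of other species, so that 1 read can be counted under several prefixes. Of the let-7 entries, 26 belonged to *Chrysemys picta* (cpi, the painted turtle), 26 to *Alligator mississippiensis* (ami), 25 to *Anolis carolinensis* (aca) and 26 to *Ophiophagus hannah* (oha). A further 8 carried the prefix mml, which miRBase uses for the rhesus macaque, although the study's methods name only the 4 saurian species. Entry names carry 1 of 2 marks. The miRBase mark stood on 66 let-7 entries and on 0 entries of any other miRNA, and 45 let-7 entries did not carry it. Those 45 entries, and all entries of other miRNAs, carried the second mark, which labels an entry as new. The study's methods do not explain the marks. For levels and tests every name was treated as 1 measurement. It was read from its cpi entry or, where cpi had none, from the next species in the order ami, aca, oha, mml. Hairpins and their arms were instead counted under every prefix.

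Counts over all entries, each entry taken once, ranged from 162285 to 1231952 per T0 library (median 512310), from 132522 to 887581 per T1 library (median 496379) and from 22648 to 2042924 per T2 library (median 418194.5). Levels are given as CPM, counts scaled to a common library size, over the 690 entries that passed a filter on low counts, with TMM factors. Since reads are counted under several species, these CPM are not shares of reads. They are also relative, so that a change in one miRNA's amount in plasma and an opposite change in all others cannot be told apart. As signs of other sources of plasma RNA, summed CPM of red cell mir-451 ranged from 1791 to 13720 at T0, from 1229 to 26620 at T1 and from 2374 to 15990 at T2. Summed liver mir-122 ranged from 2598 to 58670 CPM at T0, from 2324 to 108100 at T1 and from 1597 to 31960 at T2. Of the tested red cell, white cell, liver and muscle names, 0 were called in any comparison. The tested names were 1 each of red cell mir-451 and mir-144, 2 of white cell mir-223, 6 of mir-142 and 2 of mir-150. Liver gave 1 of mir-122, 2 of mir-192 and 2 of mir-194, and muscle 4 of mir-1, 3 of mir-133 and 1 of mir-206. Red cell mir-486 had 0 names. Of all 690 tested entries, 0.580% were called between T1 and T0, and 0% whenever T2 was compared. With so few calls in total, 0 calls does not set these names apart. With p-values unadjusted and a limit of 0.05, edgeR put 2 of 6 tested names of white cell mir-142 lower at T2 than at T0. In that comparison 8.26% of all tested entries passed the limit in either direction. Of white cell mir-223 and mir-150, with 2 tested names each, 0 names passed it. The median log2 fold change there was 0.43 for mir-223, -0.658 for mir-150 and -1.031 for mir-142. The white cell families thus did not share a direction. The 1 tested mir-122 name was lower at T2 than at T1, where 4.78% of all entries passed that limit. All 4 tested names of muscle mir-1 were lower at T2 than at T0 and at T2 than at T1 by the same limit. The highest summed mir-1 level was 23280 CPM in a T0 library, 10350 CPM in a T1 library and 345.1 CPM in a T2 library. Its median went the other way, with 104.3 CPM at T0, 321.5 CPM at T1 and 283.3 CPM at T2. Of the muscle families mir-133 and mir-206, 0 tested names passed the limit in these 2 comparisons. For T2 against T0 their median log2 fold changes were -1.625 and 0.195. The part of these sources in the let-7 levels was not tested.

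The reads of a let-7 hairpin fell on 1 arm in most hairpins, but the name of that arm depended on the mark. Hairpins are counted here once per species prefix. Since 1 read can be counted under several prefixes, they are not separate measurements. Among the 54 hairpins listed with both arms, 21 had the miRBase mark on both, and all 21 had more counts on the entry named 5p. These 21 hairpins belong to let-7b, let-7c, let-7d, let-7e, let-7g and let-7i only. In 17 of the 21 hairpins the 5p entry held over 10 times the counts of the 3p entry. The cpi entries of let-7i, the family's most abundant letter by mean CPM, had 78351 counts on 5p and 39 on 3p. Those of let-7e had 32566 on 5p and 91 on 3p, and those of let-7g had 21754 on 5p and 5 on 3p. The remaining 4 hairpins with both marks were those of let-7d, described below.

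In the 12 hairpins with the mark on neither arm, the order was turned round. All 12 had more counts on the entry named 3p, each by over 10 times, and their 5p share lay between 0.00416% and 0.4788%. They were the let-7a-1, let-7a-3, let-7c-1, let-7f-1 and let-7f-2 hairpins of cpi and ami, the let-7a-1 hairpin of oha and the let-7g hairpin of aca. The let-7g hairpin shows the contrast most directly. aca-let-7g-3p, without the mark, had 21771 counts and its 5p entry 14, whereas cpi-let-7g-5p, with the mark, had 21754 counts and its 3p entry 5. The ratio of aca-let-7g-3p to cpi-let-7g-5p stayed between 0.9818 and 1.056 in all 24 libraries, so the 2 entries with opposite arm names gave the same level. Whether the arm names of entries without the mark follow the position in the hairpin was not tested.

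Equal arms appeared among the 21 hairpins with the mark on 1 arm. Of these, 20 had at least 10 counts on both arms together, and in 11 of the 20 the arms had equal counts in at least 80% of the libraries that held a count on either arm. By the same rule, chosen after the counts were seen, 0 of 909 hairpins of other miRNAs had equal arms, and 394 of the 909 had more counts on 5p and 509 on 3p. The 11 hairpins were lowly counted, from 41 counts on 5p and 40 on 3p for oha-let-7f-2 to 338 on each arm for cpi-let-7a-4, which was equal in all 18 libraries with a count. The one hairpin with high counts and near-equal arms was that of cpi-let-7b, just outside the rule, with 46942 counts on 5p and 46955 on 3p. Its arms were equal in 19 of 24 libraries and at most 7 counts apart in the others. The let-7b-3p entries of aca, ami and oha, which carry the mark, had 404 to 408 counts. let-7b-3p is therefore given below by both kinds of entry, and its cpi entry repeats let-7b-5p to within 7 counts in each library. The plot of 5p against 3p counts shows the 3 patterns.

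**Figure D1:**
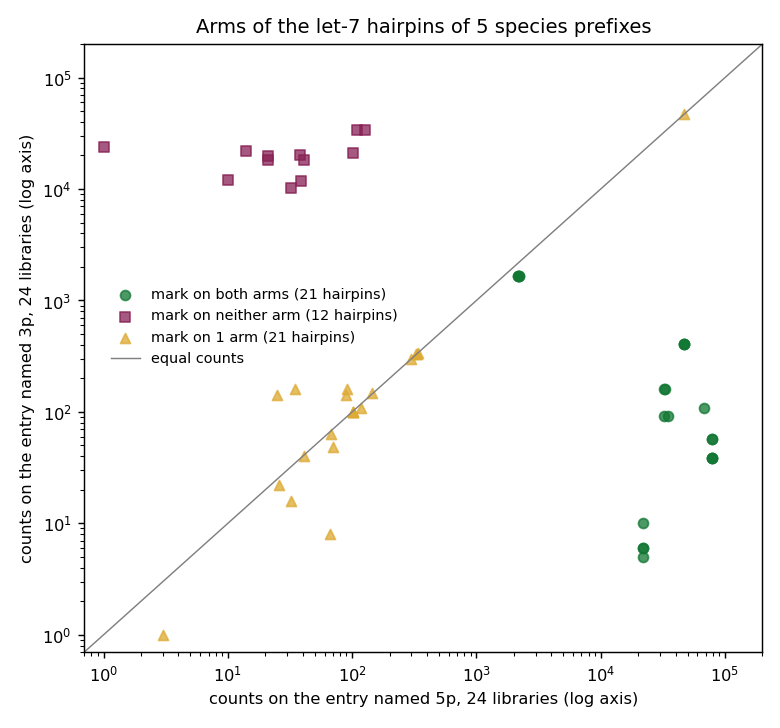
Counts on the entry named 3p against counts on the entry named 5p, summed over 24 libraries, both on log axes, for the 54 let-7 hairpins under 5 species prefixes. The 21 hairpins with the miRBase mark on both arms lie below the line of equal counts, the 12 with the mark on neither arm lie above it with at most 0.4788% on 5p, and those with the mark on 1 arm lie on both sides of it or close to it.

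let-7d was the member without a dominant arm. Its cpi entries, both with the mark, had 2169 counts on 5p and 1647 on 3p. The 5p arm was the higher in 10 libraries and the 3p arm in 13, with 1 tie. In the 23 libraries with at least 10 let-7d counts, the 5p share had a lowest, median and highest value of 31.7%, 48.2% and 71.7% at T0. At T1 these were 23.1%, 42.7% and 75.2%, and the T2 libraries spanned 30.4% to 82.9%. Either arm could thus lead at each time point, and the ranges of the 3 time points overlapped. The library left out, T2 library t39, had 5 counts.

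The same name did not always give the same count under different prefixes. Of 28 names listed under more than 1 species, 7 had totals within 1.1 times of each other, 13 had totals over 10 times apart and 8 lay between. let-7i-5p (78153 to 78360 counts over 5 species), let-7b-5p (46942 to 46989) and let-7d-5p (2169 to 2185) were among the closest. let-7f-1-3p had 143 counts under aca and 20994 under cpi, let-7c-1-3p had 64 under oha and 33650 under cpi, and let-7g-3p had 5 under cpi and 21771 under aca. In these 3 names the low entries carried the mark and the high ones did not.

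Several entries stood in near-constant ratios to each other. For let-7a, 1 entry has no copy number, aca-let-7a-5p with 72022 counts. For let-7c, mml-let-7c-5p with 67305 counts and mml-let-7c-3p with 109 have none. The other entries of both letters name a copy. mml-let-7c-5p had 2.0 times the counts of cpi-let-7c-1-3p, with a range of 1.913 to 2.111 over the libraries. aca-let-7a-5p had 3.932 times the counts of cpi-let-7a-1-3p (range 3.421 to 4.333), 3.921 times those of cpi-let-7a-3-3p (3.504 to 4.463) and 2.997 times those of oha-let-7a-1-3p (2.813 to 3.64). The cpi copies let-7a-1-3p and let-7a-3-3p differed little, with a ratio of totals of 0.9971. By contrast, cpi-let-7f-1-3p over cpi-let-7f-2-3p was 2.042 in total but moved between 1.125 and 3.716, while the ami entries of the same copies had a ratio of 1.02 (0.8713 to 1.368). A ratio between copies of let-7f therefore depended on the species entry read. Why the ratios take these values was not tested.

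**Figure D2:**
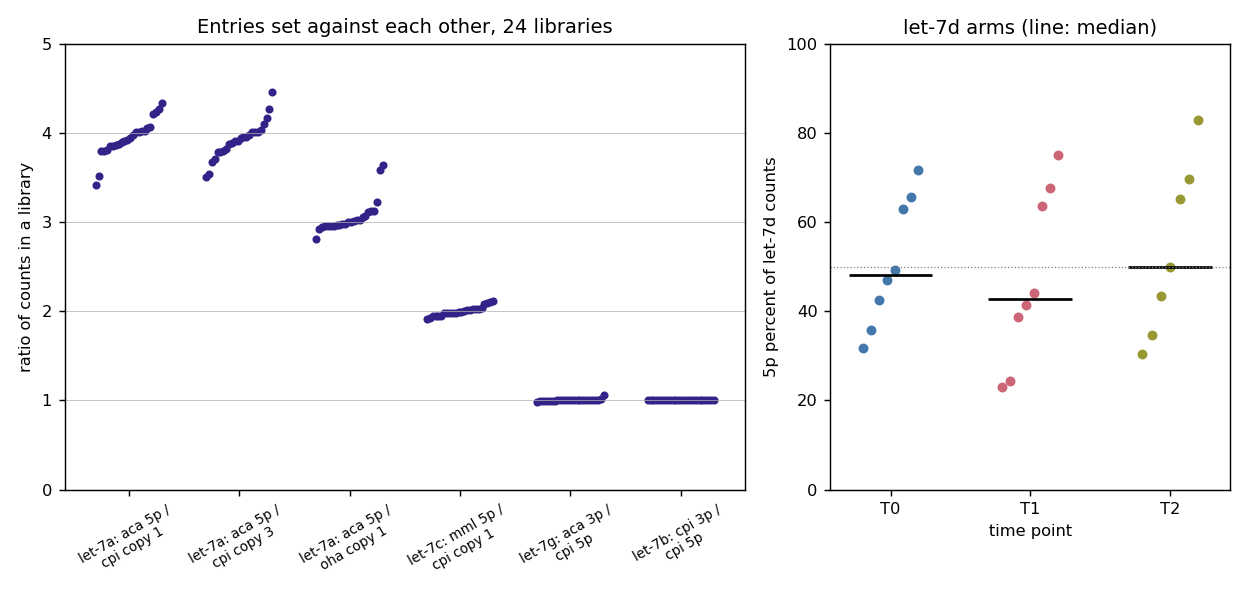
Left, the ratio of counts of 2 let-7 entries in each of 24 libraries (1 point each, sorted within a pair), whose totals stood in ratios of 3.932, 3.921, 2.997, 2.0, 1.001 and 1.0 from left to right. Right, the 5p percent of let-7d counts at T0, T1 and T2 in the 23 libraries with at least 10 counts (lines are medians), from 23.1% to 82.9%.

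For the make-up of the family each letter was read from 1 entry, or from both cpi copies for let-7f. The entry was that of aca for let-7a, of mml for let-7c and of cpi for the other letters. The cpi copies let-7a-1-3p, let-7a-3-3p and let-7c-1-3p had 18316, 18370 and 33650 counts. Each was lower than cpi-let-7b-5p with 46942. The shares and the order given here therefore depend on the entries read. let-7i took 22.2% of the pooled counts, let-7a 20.4%, let-7c 19.1%, let-7b 13.3%, let-7e 9.24%, let-7f 8.88%, let-7g 6.17% and let-7d (5p) 0.616%. As the mean share per library ± SD, let-7i had 20.7% ± 5.49, let-7c 20.3% ± 6.40, let-7a 19.4% ± 4.03 and let-7b 17.1% ± 10.3 (n = 24). These 4 letters did not keep an order. let-7i was first in 7 libraries, let-7b in 6, let-7c in 6 and let-7a in 5, and each neighbour in the mean order exceeded the next in 14, 13 and 12 of 24 libraries. let-7f and let-7e also changed places, with let-7f higher in 12 of 24. let-7b exceeded let-7f in 17 of 24, and let-7g exceeded let-7b in 5 of 24. The steadier pairs were let-7e over let-7g, in 23 of 24 libraries, and let-7g over let-7d, in 24 of 24. let-7g was above let-7f in some libraries, such as T1 library t53 with 20.03% against 15.95%.

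Relative to their own level, let-7b and let-7g varied most among the letters, by 17.7 and 18.8 times between the highest and the lowest library, against at most 6.66 times for the others. In percentage points let-7b had the largest SD and let-7g, with 3.84, a smaller one than let-7c, let-7i and let-7a. The share of let-7b lay between 2.33% in T2 library t54 and 41.2% in T0 library t40, and that of let-7g between 1.07% in T1 library t44 and 20% in T1 library t53. The next highest let-7g share was 8.9% in T2 library t54, so without t53 its range was 8.32 times. The ratio of let-7g to let-7b was 0.0295 in t44 and 4.02 in t53. let-7b over let-7a had a median of 0.694 at T0, with 1.2 at T1 and 1.1 at T2, and it ranged from 0.0958 to 3.16 over all libraries. The plot of the make-up by library shows that both extremes of let-7g fell at T1 and that low and high shares of let-7b occurred at each time point.

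**Figure D3:**
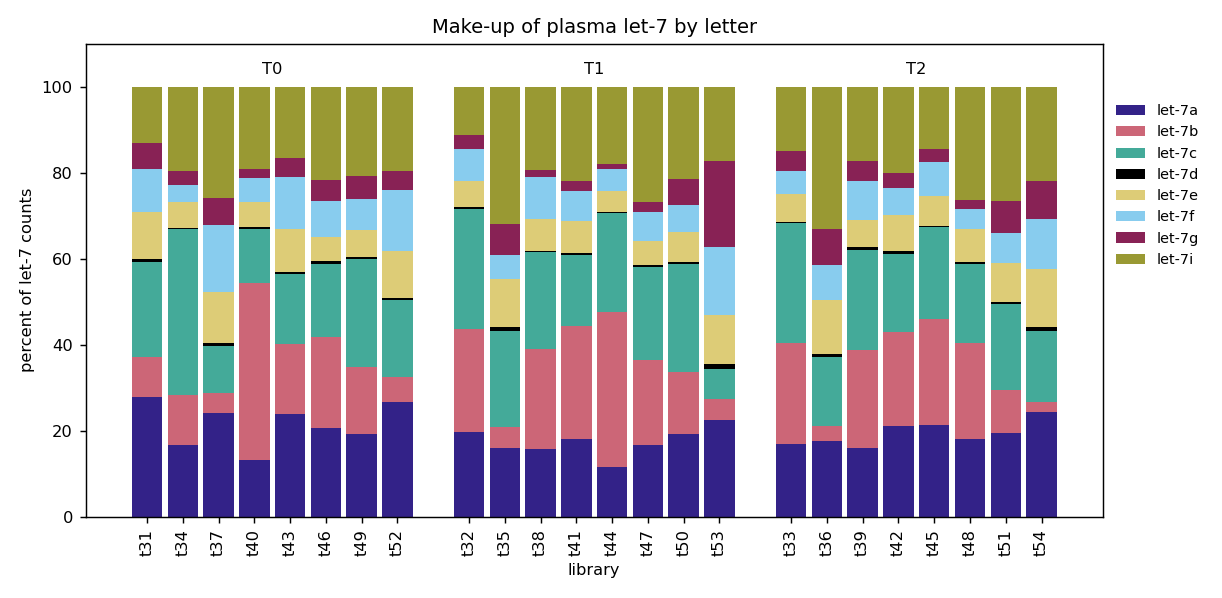
Percent of let-7 counts taken by each letter in each library (bars add to 100), grouped by time point and named by library. let-7a was read from its aca entry, let-7c from its mml entry and the other letters from cpi entries. let-7b lay between 2.33% and 41.2%, let-7c between 6.81% and 38.6%, let-7g between 1.07% and 20% and let-7a between 11.5% and 27.9%.

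Taken over its cpi entries, let-7 held between 6.85% and 11.9% of the counts of all cpi entries in the 24 libraries. Among cpi entries it took a lowest, median and highest share of 8.62%, 9.69% and 11.1% at T0. At T1 the values were 6.85%, 9.48% and 11.9%, and those of T2 libraries were 8.41%, 9.50% and 10.7%. The 3 ranges overlapped, and the means were 9.624% ± 0.837, 9.388% ± 1.81 and 9.556% ± 0.777 (SD, n = 8 each). In this share let-7b counts on both cpi arms. let-7a and let-7c enter it by their cpi copies alone. The 3p entries of these copies summed to 37124 counts for let-7a and 33672 for let-7c, against 72022 in the aca entry of let-7a and 67305 in the mml entry of let-7c.

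For the test of change, each pair of time points was compared by edgeR's quasi-likelihood test in 1 model over the 24 libraries, with Benjamini-Hochberg adjustment over all 690 entries. Calls needed an adjusted p no higher than 0.1 together with a log2 fold change (log2FC) of 1 or more in size. Of the 31 let-7 names, 16 passed the filter in the entry read for the name. The 15 names that did not pass in that entry were the lesser arms and copies. Of these, 8 were named 5p and 7 named 3p, with 5 to 126 counts over the 24 libraries in the entry read. Over all species, 48 let-7 entries passed. Among them were aca-let-7g-3p, with 21771 counts, and oha-let-7a-3-5p, with 331, although their names are not among the 16. Ranks within the family given below are among the 16 names.

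Between T1 and T0, 0 of the 16 let-7 names were called, against 0.580% of all tested entries (4 of 690). At an unadjusted p of at most 0.05 the count was also 0, against 8.99% of all entries. Of the 16 names, 10 had a positive and 6 a negative log2FC, with a median of 0.03, against 0.08 over all entries. Between T2 and T0, 0 let-7 names were called, against 0% of all entries, and 0 reached an unadjusted p of 0.05, against 8.26%. The signs were 8 positive and 8 negative, with a median of 0.00, against -0.03 over all entries. Between T2 and T1, 0 were called, against 0% of all entries, and 0 reached an unadjusted p of 0.05, against 4.78%. Here 10 names were positive and 6 negative, with a median of 0.11, against -0.11 over all entries. DESeq2 called 0 let-7 names in each comparison, and 0 of them reached an unadjusted p of 0.05 with it. The 3 comparisons share libraries and are not independent of each other. The 3p and 5p names of cpi-let-7b, and those of cpi-let-7a-4, enter these counts as separate names although their counts are nearly or fully equal. So do let-7a-5p, let-7a-1-3p and let-7a-3-3p, and let-7c-5p and let-7c-1-3p, which stand in near-constant ratios. The signs and medians are therefore not taken over 16 separate measurements.

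let-7i-5p had a lowest, median and highest level of 3247, 4648 and 7502 CPM at T0, 2885, 5178 and 8561 CPM at T1, and 3297, 5022 and 10000 CPM at T2. The ranges overlapped, and 4 of 8 T1 libraries and 4 of 8 T2 libraries lay above the T0 median. Its log2FC was 0.10 for T1 against T0 (95% interval -0.46 to 0.66) and 0.18 for T2 against T0 (-0.38 to 0.74). Leaving out single libraries turned both signs.

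let-7a-5p, read from the aca entry, had the smallest p of the family between T1 and T0. Its lowest, median and highest level was 2784, 4179 and 6107 CPM at T1, against 2253, 5927 and 7001 CPM at T0. At T2 it had 3073, 4768 and 6586 CPM. The ranges overlapped, while 7 of 8 T1 libraries and 6 of 8 T2 libraries were below the T0 median. The log2FC of T1 against T0 was -0.34 with a standard error of 0.22 (95% interval -0.80 to 0.12, edgeR adjusted p = 0.686). For T2 against T0 it was -0.18 (edgeR adjusted p = 0.916). The cpi copies let-7a-1-3p and let-7a-3-3p gave -0.32 and -0.33 between T1 and T0, but stood in a near-constant ratio to the aca entry and are no separate evidence.

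let-7c-5p, read from the mml entry, had 2166, 4418 and 11500 CPM at T0 as its lowest, median and highest level, 1146, 5389 and 7926 CPM at T1, and 3933, 4662 and 6926 CPM at T2. T0 library t34 held the highest level and T1 library t53 the lowest, and the ranges overlapped. Its log2FC was 0.03 for T1 against T0 (95% interval -0.61 to 0.67) and -0.07 for T2 against T0 (-0.71 to 0.57), and it changed sign with the scaling and with single libraries left out. cpi-let-7c-1-3p, in a near-constant ratio to it, gave 0.02 and -0.09.

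let-7b-5p showed the largest positive log2FC between T1 and T0. Its lowest, median and highest level was 838.6, 4990 and 8793 CPM at T1, against 1334, 3852 and 7059 CPM at T0. At T2 it had 630.8, 4571 and 5844 CPM. The 6 lowest libraries, 2 at each time point, had up to 1495 CPM and the next one had 2304 CPM, so the lower ends of the 3 time points were alike. The log2FC of T1 against T0 was 0.44 with a standard error of 0.45 (95% interval -0.50 to 1.37, edgeR adjusted p = 0.877). T2 against T0 gave 0.08 and T2 against T1 gave -0.35. The marked let-7b-3p entry of ami, which had 408 counts in all, gave -0.04 for T1 against T0 and 0.21 for T2 against T0, with edgeR adjusted p of 0.983 and 0.943.

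let-7e-5p had 1003, 2224 and 3444 CPM at T0, 1229, 1803 and 2955 CPM at T1, and 1216, 1783 and 3736 CPM at T2, again as lowest, median and highest level. Its log2FC between T2 and T1, 0.29, was the largest positive one of that comparison (standard error 0.28, 95% interval -0.30 to 0.87, edgeR adjusted p = 0.883). The groups overlapped, and 4 of 8 T2 libraries were above the T1 median.

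let-7f-1-3p, the more abundant cpi copy of let-7f, had the most negative log2FC at both times after surgery. Its lowest, median and highest level was 643.2, 1126 and 1989 CPM at T2, against 566.2, 1551 and 3148 CPM at T0. At T1 it had 874.4, 1273 and 1793 CPM. In 7 of 8 T2 libraries and 6 of 8 T1 libraries it was below the T0 median, but T0 itself spanned all T1 and T2 values. The log2FC was -0.50 for T2 against T0, with a standard error of 0.31 (95% interval -1.13 to 0.14, edgeR adjusted p = 0.758). For T1 against T0 it was -0.39, with a standard error of 0.31 (95% interval -1.02 to 0.24, edgeR adjusted p = 0.762). The other cpi copy, let-7f-2-3p, gave -0.17 and -0.36. The ami entry of let-7f-1-3p, with 11991 counts, gave -0.28 for T2 against T0 and -0.37 for T1 against T0 (edgeR adjusted p of 0.916 and 0.762). The size of the T2 change thus depended on the species entry read.

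let-7g-5p had 338.5, 1141 and 1840 CPM at T0, 259.2, 743.9 and 3375 CPM at T1, and 438.7, 1059 and 2537 CPM at T2. T1 held both the lowest library, t44, and the highest, t53. The log2FC was 0.06 for T1 against T0 and 0.26 for T2 against T0 (95% interval -0.70 to 1.22).

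The arms of let-7d were tested apart, since both were measured. let-7d-3p had the smallest p of the family between T2 and T1, with 52.93, 113.9 and 163.0 CPM at T2, against 89.89, 142.6 and 218.2 CPM at T1. At T0 it had 87.73, 118.1 and 176.6 CPM. In 7 of 8 T2 libraries it was below the T1 median, and the ranges overlapped. Its log2FC of T2 against T1 was -0.35 with a standard error of 0.28 (95% interval -0.92 to 0.21, edgeR adjusted p = 0.883). let-7d-5p gave 0.08 in the same comparison, from 66.98 to 255.8 CPM at T2 and from 43.2 to 272.4 CPM at T1.

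let-7a-4-3p had the largest positive log2FC of the family between T2 and T0, at the family's lowest tested level. It lay between 0 and 47.97 CPM at T2 (median 21.74) and between 0 and 32.93 CPM at T0 (median 16.82), with 0 to 59.11 CPM at T1. Its log2FC of 0.60 had a standard error of 0.70 (95% interval -0.84 to 2.05, edgeR adjusted p = 0.916). Its 5p entry had the same counts.

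**Figure D4:**
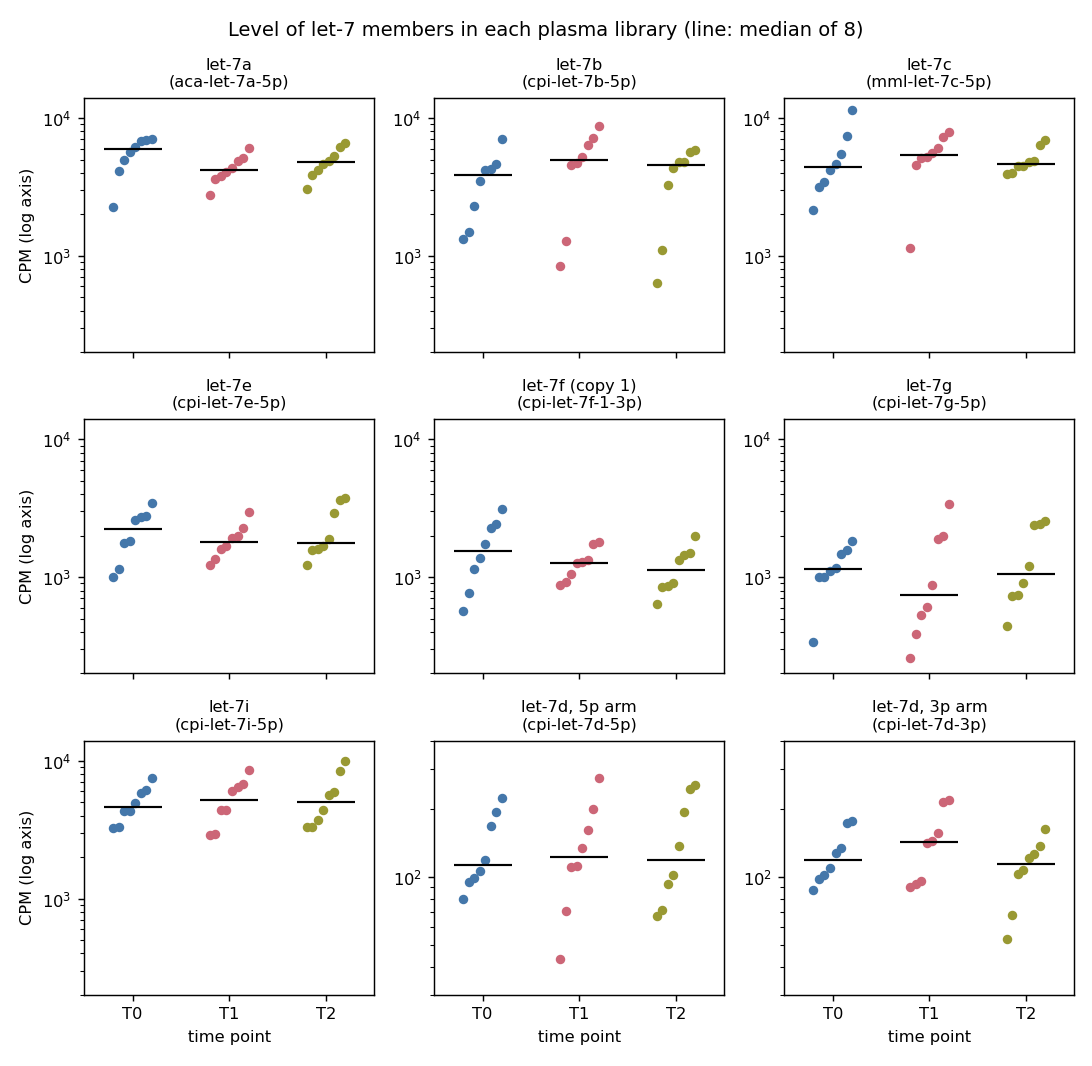
Level of 9 let-7 entries in each library, in CPM on a log axis, at T0, T1 and T2 (8 points each, lines are medians; the panels of let-7d have a lower axis range than the others). In every panel the points of the 3 time points overlap, as for let-7a-5p with 2784 to 6107 CPM at T1 against 2253 to 7001 CPM at T0.

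**Figure D5:**
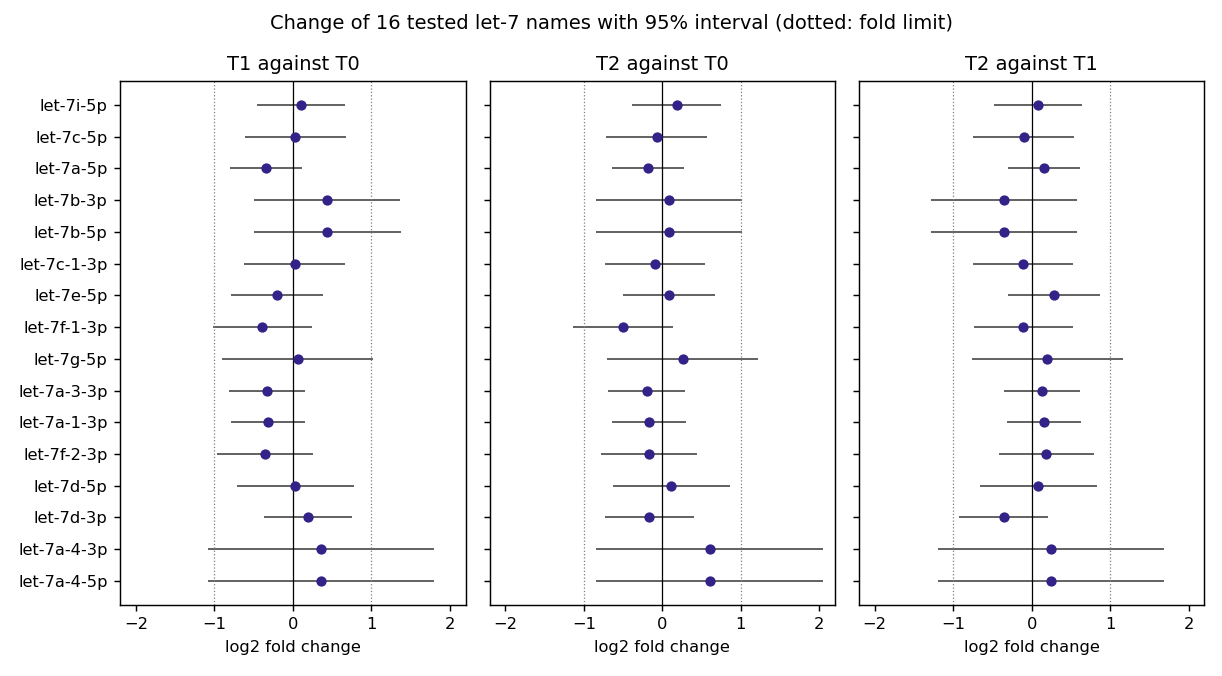
log2 fold change (points) with 95% interval (lines) of the 16 tested let-7 names in the 3 comparisons, ordered by mean CPM, with dotted lines at the fold limit of 1. All 48 intervals include 0, and the largest size of a change is 0.44 between T1 and T0, 0.60 between T2 and T0 and 0.35 between T2 and T1.

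How far the data limit a change differed by member. For let-7a-5p, let-7c-5p, let-7e-5p, let-7i-5p and both arms of let-7d, the 95% interval stayed within a log2FC of 1 in either direction in all 3 comparisons. For let-7b-5p, let-7g-5p and let-7a-4-3p it reached past that limit in each comparison, so at this spread a change of that size could not be told from none. The cpi entry of let-7f-1-3p passed it in the negative direction after surgery. Its ami entry did not, with lower ends of -0.96 for T1 against T0 and -0.87 for T2 against T0. The members also differed in the spread between libraries of 1 time point. The SD of log2 CPM within time points was 0.432 for let-7a-5p, and 95.4% of the tested entries had a larger one. It was 0.543 for let-7i-5p (88% larger), 0.565 for let-7e-5p (83.9%), 0.686 for let-7c-5p (73.2%), 1.025 for let-7g-5p (51.4%) and 1.103 for let-7b-5p (47.2%). let-7f-1-3p had an SD of 0.626, smaller than that of let-7c-5p and of let-7d-5p (0.721). Its log2FC after surgery was larger in size than theirs. Over the 16 names the median SD was 0.65, against 1.054 over all tested entries. The let-7 names also had a higher median level, 1336 against 113.7 CPM, and the part of the level in the smaller SD was not tested.

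Relatives and neighbours of let-7 were read from a list. It held mir-98, which shares the let-7 seed in mammals, mir-202, whose seed is close to it, and mir-99, mir-100 and mir-125, whose genes lie beside let-7 genes in other vertebrates. Of its 12 tested names, 0 were called and 0 reached an unadjusted p of 0.05 by edgeR in each comparison, read beside the background shares above. mir-98-3p averaged 125.1 ± 49.94 CPM at T0, with 139.9 ± 36.81 at T1 and with 109.7 ± 38.18 at T2 (SD, n = 8 each), near the level of let-7d. mir-202 was not tested because both of its names failed the filter. mir-99a-3p, the most abundant of the list, averaged 32610 ± 8147 CPM at T0, with 37840 ± 14460 at T1 and with 42720 ± 12660 at T2. mir-100-3p averaged 1030 ± 303.8 CPM at T0, with 1440 ± 536.8 at T1 and with 1333 ± 553.4 at T2, a log2FC of 0.49 for T1 against T0 that did not pass the test (edgeR adjusted p = 0.66). mir-125b-3p, read from the oha entry, averaged 2225 ± 676.9 CPM at T0, with 2952 ± 1504 at T1 and with 3102 ± 1398 at T2. The entries of this list do not carry the miRBase mark. Whether their arm names follow the position in the hairpin was not tested, so the 3p names do not show which arm dominates.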

How the data were processed

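The authors discarded reads shorter than 14 nt, clipped adapters with Cutadapt and aligned with BWA at default settings to miRBase precursors of 4 saurian species. The unit of the deposited table is counts, whole numbers of reads for every mature miRNA entry in every library, which the authors did not normalize. Its 3988 rows hold each entry in 2 rows with the same counts, of which 1 was used here. The labels name a Qiagen kit for RNA extraction and the study's results another one, and which was used was not settled. Depth, which bears on the precision together with the spread between libraries, is given per time point with the results.

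Time points were taken from the labels. Counts were normalized by TMM (factors 0.653 to 1.334), filtered with filterByExpr and tested with edgeR 4.0.16 (R 4.3.3) in 1 quasi-likelihood model over 24 libraries (common dispersion 0.453). Standard errors are the log2FC divided by the root of F, or by the t value of p where edgeR bounded it. Spread was taken on log2(CPM + 1). Shares, arms and ratios used raw counts and were described with no test. The names chosen for description were the 8 with the highest mean CPM and their opposite arms, and, per comparison, those with the smallest p and with the largest and smallest log2FC. Of these, let-7c-1-3p is given by counts and log2FC without levels. Opposite arms that failed the filter are given by counts alone, with 109 for let-7c-3p, 126 for let-7c-1-5p and 101 for let-7f-1-5p. let-7d-5p, let-7f-2-3p, let-7g-5p and the remaining let-7a copies were added after values were seen. Alternatives were DESeq2 1.42.0, other normalizations, filters, species, copies and limits, 2 time points in the fit and libraries left out. The members and lists were chosen with earlier results of these data known. On simulated counts for T1 against T0 with 667 entries in the fit, edgeR recovered 93.9% of log2 changes of 2 and 100% of changes of 3, and called 10 of 475 unchanged entries. Every simulated entry had the common dispersion, and smaller changes were not simulated. The simulation therefore does not show how many changes near the fold limit of 1 would be called. Tables were handled in Python 3.11.15 with numpy 2.4.6 and pandas 2.3.3, and plots drawn with matplotlib 3.10.9. Sequences of the miRNAs are not printed here.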

Additional observations from a re-analysis of the deposited data

How the results depend on the processing

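The count of let-7 names called was 0 in each comparison under all 41 settings, leaving out each library included. An unadjusted p limit of 0.05 with no fold limit, added after seeing the data, also gave 0 in the fit reported, but not in all others. Among the members named, let-7a-5p passed it between T1 and T0 without TMM, without T0 library t40 and without the lowest library of each time point (log2FC -0.47, -0.45 and -0.37, edgeR adjusted p of 0.4, 0.41 and 0.446). let-7f-1-3p passed it between T2 and T0 without t40 and without T2 library t54 (log2FC -0.62 in both, edgeR adjusted p of 0.606 and 0.711). The smallest adjusted p of a let-7 name over settings lay between 0.4 and 0.878 for T1 against T0, 0.343 and 1.0 for T2 against T0, and 0.534 and 1.0 for T2 against T1. Directions of uncalled members were less stable. For T1 against T0, let-7c-5p and let-7c-1-3p turned to log2FC of -0.14 and -0.15 without TMM, -0.0439 and -0.055 without a filter, -0.022 and -0.0336 with 2 time points in the fit, and -0.0435 and -0.0452 without the lowest library of each time point. Without TMM, T2 against T1 gave 0.0451 and 0.0331 for them. Summing cpi copies turned let-7b-3p and let-7b-5p between T2 and T0 to -0.0074 and -0.0068, and the let-7a-5p name, which then holds the light 5p entries of the copies, to 0.0809 for T1 against T0 and 0.25 for T2 against T0. Summing species turned let-7f-1-3p between T2 and T1 to 0.0239. The causes were not tested, apart from the change of entries that summing makes.

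With single libraries left out, log2FC of T1 against T0 ranged from -0.11 to 0.31 for let-7c-5p, -0.12 to 0.29 for let-7c-1-3p and -0.0639 to 0.21 for let-7i-5p. For T2 against T0 the ranges were -0.0393 to 0.29 for let-7b-3p, -0.0387 to 0.29 for let-7b-5p, -0.19 to 0.20 for let-7c-5p, -0.21 to 0.17 for let-7c-1-3p, -0.0557 to 0.31 for let-7e-5p and -0.0022 to 0.37 for let-7i-5p. For T2 against T1 they were -0.21 to 0.12 for let-7c-5p, -0.22 to 0.11 for let-7c-1-3p, -0.28 to 0.0463 for let-7f-1-3p and -0.0409 to 0.25 for let-7i-5p. The let-7a-5p log2FC of T1 against T0 stayed negative, from -0.45 to -0.26.

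The mean let-7 share depended on the species read. It was 8.534% at T0 and 8.455% at T2 with ami entries, 7.224%, 6.884% and 7.359% at T0, T1 and T2 with aca entries, and 5.985%, 5.941% and 6.28% with oha entries. Of 13 cpi hairpins 6 had more counts on 5p, against 32 of 54 over all species, where a hairpin name counts once per prefix. No paired analysis was possible because the labels name no turtle and no replicate number is shared between time points, although the same turtles were sampled each time. How pairing would move the tests was not tested.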

Other observations

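The reported levels and shares were examined in 54 groups of 8 libraries, or 7 for the let-7d arm share at T2. Of these groups, 0 held a library past Dixon's limit for an outlying value, where chance alone would give about 1 in 20. Some groups repeat nearly the same counts, such as both cpi arms of let-7b, so they are not separate chances. The shares of the single letters were not examined in this way, so the result does not cover them. At T1, let-7g took 20.03% in library t53 and 7.37% in the next highest, t35. At T0, let-7b took 41.2% in library t40 and 21.21% in the next highest, t46.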
